A study of Macaca mulatta with 6 samples.

Results

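Axonemal dynein, radial spoke, tektin and other ciliary genes were examined by bulk RNA sequencing in rhesus monkey cultures that the study names spermatogonial stem cells (SSCs). Members were taken by symbol, as every gene whose name starts with DNAH, DNAI, DNAL, DNAAF, CFAP, RSPH, TEKT, IFT, DRC or BBS followed by a digit. This gave 98 of the 17795 genes listed. Of these, 61 were grouped as motile (DNAH, DNAI, CFAP, RSPH and TEKT), 22 as primary cilium (IFT and BBS) and 15 as neither (DNAL, DNAAF and DRC).

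The PDGF group comprised 3 libraries of SSC cultures that received human platelet-derived growth factor, and the PDGFNO group comprised 3 libraries of PDGF-free cultures. The culture methods describe droplets of basement membrane extract and a serum-containing StemPro-34 medium with PDGF, GDNF, EGF, LIF, bFGF and a recombinant Wnt protein, and do not separately state the medium or matrix of the PDGF-free cultures. In both groups replicate 1 is labelled batch 1 and replicates 2 and 3 are labelled batch 2. The labels name the tissue as testis, and neither they nor the methods give the donors, their ages or the days in culture of these libraries, so the adjusted p-values measure only the spread between libraries, which may be technical.

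Motile cilia and sperm flagella are built on an axoneme, a ring of microtubule doublets on which dynein arms pull to bend the shaft. Radial spokes and the nexin-dynein regulatory complex control these arms, tektins fill the inside of the doublets, and DNAAF proteins assemble the dyneins in the cytoplasm before they are carried in. A primary cilium has no such motor arms and senses signals instead. Both kinds of cilium are built by intraflagellar transport (IFT), and the BBSome, a complex of BBS proteins, moves membrane proteins through them. In the testis the axoneme is made in spermatids as they form the tail, while motile cilia also line the efferent ducts.

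Each PDGF library held 13095467 to 14102697 counts and each PDGFNO library 10593805 to 11605908. Levels are given as CPM, the count of a gene scaled to a common library size, with TMM factors that correct for library composition. A gene was called when the edgeR quasi-likelihood test gave a Benjamini-Hochberg adjusted p under 0.05 over the 11539 genes that passed a filter on low counts, and fold changes are log2 of PDGF over PDGFNO. The median log2 fold change of all tested genes was 0.02. The SSC label was checked against defining markers. NANOS2 and DMRT1 had no count in any library, GFRA1, ZBTB16 and MAGEA4 averaged at most 0.54 CPM in either group, and UCHL1 and ID4 were abundant. Over the 6 libraries, peritubular and stromal markers summed to 14488 to 20078 CPM and spermatogonial markers to 435 to 536 CPM. Sums over unlike gene lists do not measure shares of cells. The name SSC is thus the study's, and the absent and low markers do not bear it out. For that name the study also shows colonies stained for SSEA4, and it reports higher stemness scores with PDGF.

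Many genes of the motile axoneme were lower with PDGF, most of them at a low level. The summed level of the primary cilium genes overlapped between groups, at 678 to 744 CPM in PDGF and 701 to 746 CPM in PDGFNO. Of the 61 motile members, 37 passed the filter, and 17 of these fell with PDGF and 0 rose. Over all tested genes, 10.7% were called lower and 7.61% higher, against 45.9% of the tested motile members lower. Without the members whose exons overlap another gene in the annotation, 15 of 27 motile members were called lower. The median log2 fold change of the tested motile members was -0.93, and it was -0.87 in batch 1 and -0.94 in batch 2. Of the 21 tested primary cilium members, 3 fell (IFT122, IFT27 and IFT172), which is 14.3%, and 0 rose. Their median was -0.05, with -0.15 in batch 1 and -0.00 in batch 2. In these bulk samples, fewer cells of a type cannot be told apart from less RNA per cell.

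The absence of higher calls was not complete by other measures. At an unadjusted p under 0.05, 22 motile members were lower and 1 was higher, and 3 primary cilium members were lower and 0 were higher. DESeq2 and limma-voom each called 18 motile members lower and 0 higher, and 3 primary cilium members lower and 0 higher. The replicate number was also used as a block, which compares same-numbered libraries. With it, 24 motile members were lower and 2 (CFAP58 and CFAP97) were higher. Of the primary cilium members, 6 were lower and 4 (IFT57, IFT81, BBS5 and BBS7) were higher. The blocked fit called 29.0% of all tested genes lower and 31.1% higher, so the blocked share of primary cilium members, 28.6% lower and 19.0% higher, was no larger than that of all genes. The blocked share of motile members was 64.9% lower and 5.41% higher. The shares of all genes, 29.0% lower and 31.1% higher, stand beside every count with the block given below.

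**Figure D1:**
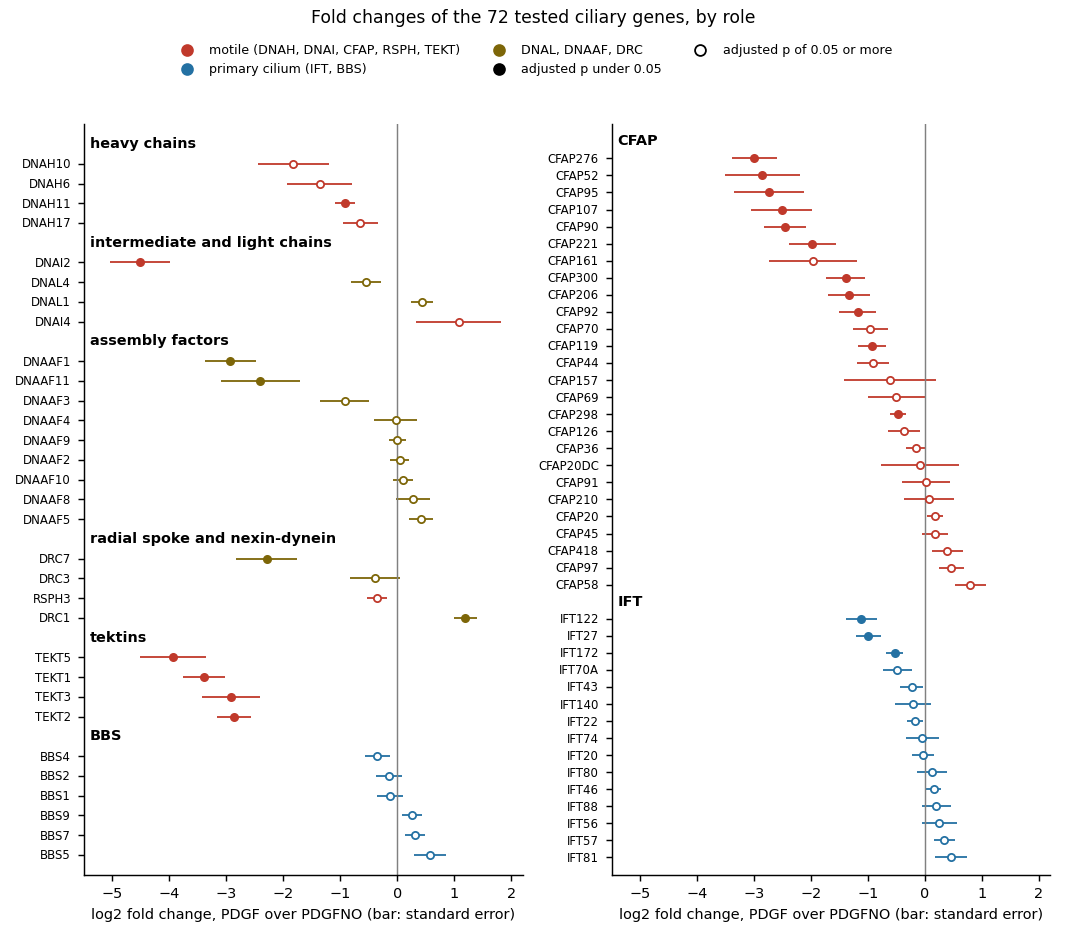
Log2 fold change of PDGF over PDGFNO for each of the 72 tested ciliary genes, with its standard error (3 libraries a group), ordered by role. Filled points had an edgeR adjusted p under 0.05. All 4 tektins lie at -2.86 or below, while the BBS and most IFT genes lie near 0.

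The groups separated for more motile members than the calls alone show. For 22 of the 37, every PDGF library was under every PDGFNO library, and for 3 every PDGF library was over, against 19.3% and 18.2% of all tested genes. For the primary cilium members these counts were 3 and 2 of 21. The filter keeps a gene that is high in only 1 group. In 9 of the 37 motile members, 7 of them called, no PDGF library reached its cutoff. These are said here to pass through PDGFNO alone. Among the other 28, 10 were called lower. Of these 10, CFAP107, CFAP276, CFAP90 and TEKT2 reached the cutoff in only some PDGF libraries, so they too were kept because PDGFNO is high. With the 24 motile members that did not pass the filter counted too, the ratio of the groups was below 0 on the log2 scale for 47 of 61 and above 0 for 14.

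Summed over the 61 motile members, the level was 252 to 300 CPM in PDGF and 361 to 384 CPM in PDGFNO, and the groups did not overlap. A split at a mean of 5 CPM, chosen after the values were seen, left 9 members above it. Of these, 2 were called lower (DNAH11 and CFAP298), and their median log2 fold change was -0.16. Of the 28 tested members under 5 CPM, 15 were called lower, with a median of -1.38, and the sum of all 52 such members was 44.2 to 47.5 CPM in PDGF and 101 to 117 CPM in PDGFNO. All 9 members that passed through PDGFNO alone, 7 of them called, are among these 28, and 8 of the other 19 were called lower. Those 8 include CFAP107, CFAP276, CFAP90 and TEKT2, which were kept because PDGFNO is high. Per kilobase of exon, the median motile member reached 0.607 CPM per kb in PDGFNO and the median primary cilium member 6.81 CPM per kb. The 21 tested primary cilium members all averaged above 5 CPM, and 3 were called lower, with a median log2 fold change of -0.05. Beside them, the 9 motile members above 5 CPM had 2 called lower and a median of -0.16. Whether the difference between the classes follows from level was not tested.

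**Figure D2:**
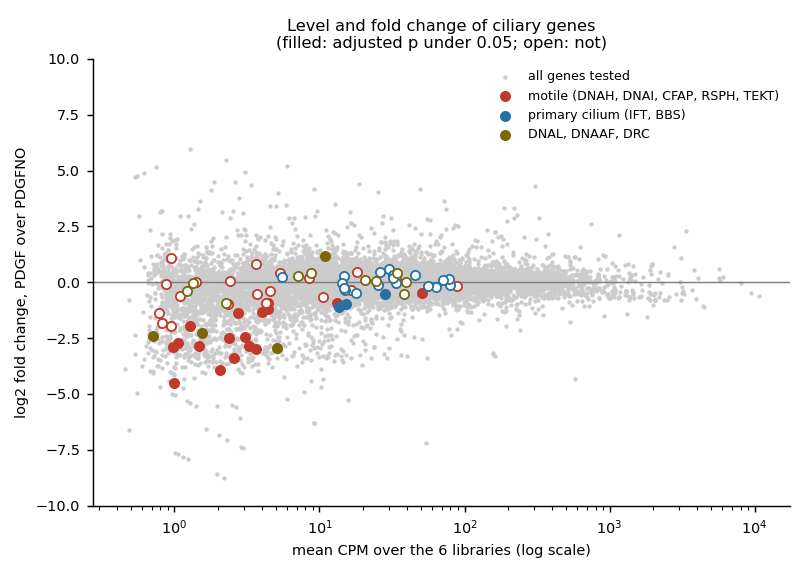
Log2 fold change against mean CPM over the 6 libraries (log axis) for all 11539 tested genes in grey and for the ciliary genes in colour, filled where the edgeR adjusted p was under 0.05. The motile members called lower lie mostly under 5 CPM, and the primary cilium members lie above 5 CPM, between -1.12 and 0.57, with 3 of them called lower.

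Tektins, the filamentous proteins inside the doublet microtubules, were called lower for 4 of 4 genes. TEKT1, TEKT3 and TEKT5 passed the filter through PDGFNO alone, the group where they are high. TEKT2 reached the filter's cutoff in only some PDGF libraries, so it too was kept because PDGFNO is high. Their summed level was 1.55 to 1.95 CPM in PDGF and 12.6 to 19.2 CPM in PDGFNO. TEKT1 was at 0.338, 0.626 and 0.376 CPM in PDGF and at 3.86, 5.27 and 5.09 CPM in PDGFNO. Every PDGF library was thus far under every PDGFNO library, and TEKT1 fell by 3.39 on the log2 scale (SE 0.38, adjusted p = 0.00091). TEKT2 was at 0.608, 0.938 and 0.826 CPM with PDGF and at 5.42, 5.75 and 6.17 CPM without. It fell by 2.86 (SE 0.30, adjusted p = 0.00074), with little spread within either group. Its exons overlap an unnamed locus in the annotation.

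TEKT5, the tektin best known from the sperm flagellum, was at 0.338, 0.156 and 0.225 CPM in PDGF and at 2.14, 6.23 and 3.23 CPM in PDGFNO. The PDGFNO libraries differed among themselves, with replicate 2 highest, but all lay above PDGF, and TEKT5 fell by 3.93 (SE 0.58, adjusted p = 0.0033). TEKT3 was at 0.270, 0.235 and 0.150 CPM in PDGF and at 1.15, 1.92 and 2.16 CPM in PDGFNO. These are 2 to 4 counts a library with PDGF against 14 to 22 without, and TEKT3 fell by 2.92 (SE 0.51, adjusted p = 0.0063). All 4 tektin calls held whichever library was left out, and with replicates 2 and 3 summed TEKT3 was no longer called (adjusted p = 0.051).

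**Figure D3:**
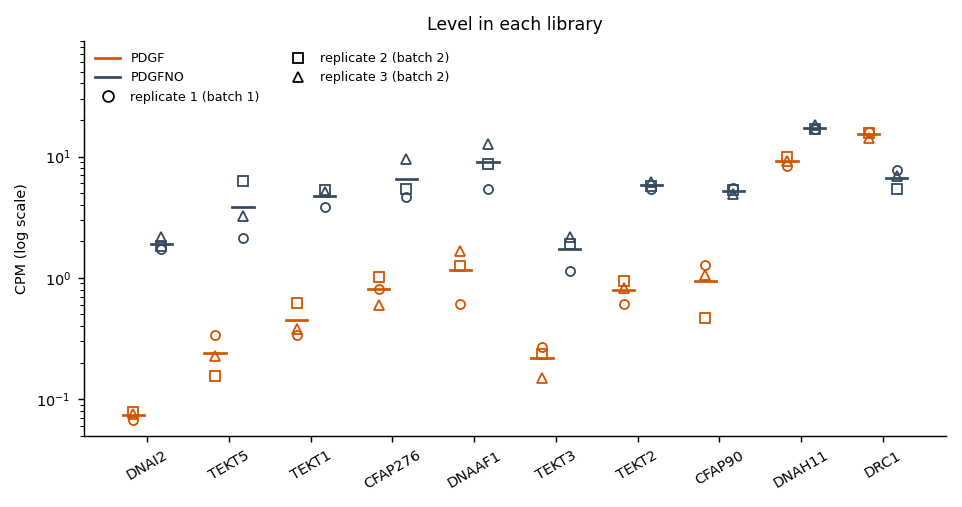
CPM (log axis) in each of the 6 libraries for the 10 ciliary genes called whichever library was left out, with a line at the mean of each group. In 9 genes all PDGF libraries lie under all PDGFNO libraries, and DRC1, which shares its counts with SELENOI, lies the other way.

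Axonemal dynein heavy chains are the motor subunits of the arms, and few of them were measurable. Of 11 DNAH genes, 4 passed the filter and 1 was called lower, or 3 with the replicate block. DNAH11, an outer arm heavy chain, was at 8.30, 9.93 and 9.24 CPM in PDGF and at 16.8, 16.9 and 18.2 CPM in PDGFNO. Both groups were tight and apart, and DNAH11 fell by 0.92 (SE 0.17, adjusted p = 0.0089), a call kept whichever library was left out but lost with replicates 2 and 3 summed (adjusted p = 0.12). The other 3 tested heavy chains were not called. DNAH17, an outer arm heavy chain of sperm, had a log2 fold change of -0.65 (SE 0.31, adjusted p = 0.19). Its groups overlapped, since replicate 2 was highest in both, and with the replicate block its adjusted p was 0.0025. Its exons overlap those of PGS1 in the annotation.

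DNAH10, an inner arm heavy chain, was at 0.743, 0.156 and 0.150 CPM in PDGF and at 1.48, 1.34 and 1.08 CPM in PDGFNO. Its groups did not overlap, but its log2 fold change of -1.82 had an adjusted p of 0.080, and 0.015 with the block. Without PDGF replicate 1, which held 11 of the 15 PDGF counts, it was called lower (-2.99, adjusted p = 0.021). DNAH10 and DNAH6 passed the filter through PDGFNO alone. DNAH6 gave -1.36 (adjusted p = 0.14) with 18 counts in PDGF and 37 in PDGFNO, or -2.03 without PDGF replicate 1. The 7 untested heavy chains had few counts. DNAH9, an outer arm chain of multiciliated cells, had 13 counts over the PDGF libraries and 44 over the PDGFNO libraries, a depth-corrected ratio of PDGFNO over PDGF of 4.18 (exact 95% interval 2.21 to 8.46). For DNAH8, a heavy chain of sperm, the ratio was 3.18 (1.67 to 6.37), and 1.70 without PDGFNO replicate 2, which held 23 of the 36 PDGFNO counts. For DNAH2 it was 1.54 (0.823 to 2.93), with 0.819 without PDGFNO replicate 3 and 2.62 without PDGF replicate 2. Such intervals cover counting error only.

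Intermediate chains help to anchor dynein arms to the doublet, and light chains bind to the heavy chains or their tails. Of 4 tested genes of 7 listed, 1 was called lower and 0 higher, and with the block 2 lower and 1 higher. DNAI2 had the largest fitted fall of the tested members and passed the filter through PDGFNO alone. It had 1 count in each PDGF library and 21, 19 and 22 counts in the PDGFNO libraries, or 3 against 62. The ratio of PDGFNO over PDGF was 25.5 (exact 95% interval 8.34 to 127), the fitted log2 fold change was -4.51 (SE 0.52), and the adjusted p was 0.0011. The call held whichever library was left out. Its partner DNAI1 did not pass the filter, with 6 counts in PDGF and 36 in PDGFNO and a ratio of 7.41 (3.09 to 21.5). Most of the PDGFNO reads of DNAI1 came from replicates 2 and 3, with 13 and 22 counts against 1 in replicate 1, and the ratio ranged from 4.25 without PDGFNO replicate 3 to 14.9 without PDGF replicate 3.

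Other chains gave smaller differences. DNAI3 had 10 and 30 counts, a ratio of 3.71 (1.76 to 8.5), but 23 of the 30 came from PDGFNO replicate 1, without which it was 1.34, and it was 6.05 without PDGF replicate 1. DNAI7 had 35 and 28 counts, a ratio of 0.988 (0.579 to 1.67), or 0.624 without PDGFNO replicate 3. DNAI4 had a log2 fold change of 1.08 with an adjusted p of 0.35, or 1.86 without PDGFNO replicate 2. The light chain gene DNAL4 had a log2 fold change of -0.54 (adjusted p = 0.19, and 3.5e-05 with the block), and DNAL1 had 0.44 (adjusted p = 0.15, and 0.043 with the block). DNAL4 was at 20.5, 38.4 and 34.3 CPM with PDGF and at 36.3, 54.2 and 45.2 CPM without. Its replicate 1 was the lowest in both groups, and its groups overlapped.

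Among the dynein assembly factors, which act in the cytoplasm, 2 of 9 tested genes were called lower and 0 higher, of 10 listed. DNAAF1 was at 0.608, 1.25 and 1.65 CPM in PDGF and at 5.42, 8.72 and 12.7 CPM in PDGFNO. It fell by 2.93 (SE 0.45, adjusted p = 0.0038), and this call held whichever library was left out. Its PDGF libraries held 9, 16 and 22 counts, and not all reached the filter's cutoff, so DNAAF1 was kept because PDGFNO is high. Its exons overlap those of TAF1C in the annotation. DNAAF11 had 5, 0 and 4 counts in PDGF and 12, 14 and 13 in PDGFNO and fell by 2.40 (SE 0.70, adjusted p = 0.048). Its call was lost without any PDGF library (adjusted p = 0.064, 0.090 and 0.11 without replicates 1, 2 and 3) and without PDGFNO replicate 2 or 3 (0.13 for each).

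The abundant assembly factors, which include genes that other tissues also express, were near 0. DNAAF9 was at 38.6, 41.2 and 39.4 CPM in PDGF and at 44.2, 39.4 and 35.5 CPM in PDGFNO, with a log2 fold change of 0.00. DNAAF2 had 0.04 (adjusted p = 0.90), and DNAAF5 had 0.41 (adjusted p = 0.22, and 0.00097 with the block). DNAAF6 had 0 counts in PDGF and 13 in PDGFNO, and 11 of the 13 came from replicate 3.

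Radial spokes and the nexin-dynein complex gave 4 testable genes of 7 listed, of which 1 was called lower and 1 higher, or 2 and 1 with the block. Of the 4 RSPH genes only RSPH3 passed, with a log2 fold change of -0.35 (SE 0.18, adjusted p = 0.21, and 0.027 with the block). Its PDGF libraries, at 15.9, 15 and 12.8 CPM, were all under the PDGFNO libraries, at 20.9, 17.1 and 17.5 CPM. Untested RSPH1, a spoke head protein, had 0, 2 and 4 counts in PDGF and 9, 16 and 19 in PDGFNO, a ratio of 9.06 (3.85 to 26) that ranged from 5.92 without PDGF replicate 1 to 18.2 without PDGF replicate 3. RSPH6A, a spoke head protein of sperm, had 2 and 20 counts, a ratio of 12.4 (3.0 to 109), or 8.07 without PDGF replicate 1. RSPH4A, its counterpart in airway cilia, had 9 and 5 counts, a ratio of 0.686 (0.181 to 2.28), or 2.09 without PDGF replicate 2.

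DRC7, a subunit of the nexin-dynein complex, was at 0.338, 0.782 and 0.451 CPM in PDGF and at 1.56, 2.11 and 4.12 CPM in PDGFNO. It fell by 2.29 (SE 0.53, adjusted p = 0.021), but the call was lost without PDGF replicate 1 (adjusted p = 0.058) or 3 (0.079) and without PDGFNO replicate 3 (0.078). DRC1 was the only member that was called higher, at 15.9, 15.6 and 14.3 CPM in PDGF and at 7.72, 5.36 and 6.96 CPM in PDGFNO (log2 fold change 1.19, SE 0.20, adjusted p = 0.0060), a call lost with replicates 2 and 3 summed (0.071). Its counts were identical to those of SELENOI in all 6 libraries, so the reads cannot be assigned to either gene. DRC3 had -0.39 (adjusted p = 0.57).

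CFAP is a name given to many ciliary and flagellar proteins of differing place, and 11 of 26 tested genes were called lower, 0 higher, of 37 listed. CFAP276, a protein inside the doublet microtubules, was at 0.810, 1.02 and 0.601 CPM in PDGF and at 4.68, 5.36 and 9.50 CPM in PDGFNO. It fell by 2.99 (SE 0.40, adjusted p = 0.0021). CFAP90 was at 1.28, 0.469 and 1.05 CPM in PDGF and at 5.50, 5.27 and 4.90 CPM in PDGFNO, and fell by 2.46 (SE 0.37, adjusted p = 0.0037). For both genes the lowest PDGFNO library was well above the highest PDGF library, and both calls held whichever library was left out.

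Another 4 CFAP genes fell by a similar amount on fewer counts. CFAP52, CFAP95 and CFAP221 passed the filter through PDGFNO alone, as did DNAAF11 and DRC7. CFAP52, a doublet lumen protein, had 1, 9 and 4 counts in PDGF and 18, 36 and 29 in PDGFNO, with a log2 fold change of -2.85 (adjusted p = 0.021). It was no longer called without PDGF replicate 3 (0.078) or PDGFNO replicate 2 (0.075) or 3 (0.069), and without PDGF replicate 2 its log2 fold change was -3.76. CFAP107 gave -2.52 (adjusted p = 0.015), and lost its call without PDGF replicate 3 (0.058) or PDGFNO replicate 3 (0.061). Without PDGF replicate 2 the log2 fold change of CFAP107 was -3.32. CFAP95 gave -2.73 (adjusted p = 0.018), and lost its call without PDGF replicate 2 (0.060) or 3 (0.069) or PDGFNO replicate 2 (-2.06, 0.051). CFAP221, a central apparatus protein, gave -1.98 (adjusted p = 0.013, and 0.065 without PDGF replicate 2). The other 5 called genes, CFAP300, CFAP206, CFAP92, CFAP119 and CFAP298, fell by 0.48 to 1.39, and none held in more than 2 of the 6 fits that leave out a library.

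The most abundant uncalled CFAP genes lay closer to 0. CFAP36 was at 97.0, 82.7 and 72.1 CPM in PDGF and at 113, 86.2 and 82.0 CPM in PDGFNO, and its groups overlapped (log2 fold change -0.16, adjusted p = 0.57, and 0.033 with the block). CFAP20 had a log2 fold change of 0.17 (adjusted p = 0.44) and CFAP97 one of 0.46 (adjusted p = 0.18, and 0.0030 with the block). CFAP20 and CFAP36 are also expressed in many cells without motile cilia. Of the 11 untested CFAP genes, CFAP99 had 8 counts in PDGF and 57 in PDGFNO (ratio 8.80, 4.18 to 21.4). With 1 library left out this ratio ranged from 5.69 without PDGFNO replicate 3 to 47.7 without PDGF replicate 2, where 1 PDGF count was left. CFAP65 had 7 and 47 (ratio 8.29, 3.73 to 21.7), and ranged from 5.50 without PDGFNO replicate 2 to 12.6 without PDGF replicate 1. CFAP61, a protein of the radial spoke base, went the other way with 39 and 13 counts (ratio 0.412, 0.202 to 0.788), and its exons overlap those of CRNKL1.

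IFT genes encode the trains that carry cargo along the axoneme. Their summed level was 478 to 536 CPM in PDGF and 508 to 553 CPM in PDGFNO, and the groups overlapped. Of 15 tested IFT genes, 3 were called lower and 0 higher, or 6 and 2 with the block. IFT27, a small GTPase of the IFT-B complex, was at 9.65, 9.46 and 11.3 CPM in PDGF and at 15.5, 23.9 and 21.1 CPM in PDGFNO, and fell by 0.99 (SE 0.21, adjusted p = 0.015). It was no longer called without PDGF replicate 2 (0.068) or PDGFNO replicate 2 (0.064) or 3 (0.058).

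IFT122, a subunit of the IFT-A complex, was at 5.74, 9.77 and 10.3 CPM in PDGF and at 14.8, 20.5 and 20.7 CPM in PDGFNO. It fell by 1.12 (SE 0.27, adjusted p = 0.023), and lost the call without PDGF replicate 2 (0.058) or PDGFNO replicate 2 (0.086) or 3 (0.087). Its exons overlap those of MBD4. IFT172, an IFT-B subunit, was at 23.6, 23.7 and 21.8 CPM in PDGF and at 29.5, 34.8 and 35.8 CPM in PDGFNO. It fell by 0.53 (SE 0.15, adjusted p = 0.048), but was called in only 1 of the 6 fits that leave out a library, the one without PDGFNO replicate 1, and reached 0.17 without PDGF replicate 3. So none of the 3 primary cilium calls held in all 6 such fits, while 8 of the 17 motile calls did. Of these 8, DNAI2, TEKT1, TEKT3 and TEKT5 passed the filter through PDGFNO alone. CFAP276, CFAP90 and TEKT2 were kept because PDGFNO is high, which leaves DNAH11. All 21 tested primary cilium members passed through both groups, so these counts do not compare the classes on equal terms.

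The most abundant IFT genes were not called. IFT46 was at 85.2, 84.8 and 77.6 CPM in PDGF and at 74.9, 68.2 and 79.5 CPM in PDGFNO (log2 fold change 0.15, adjusted p = 0.46). IFT80 had 0.12 (adjusted p = 0.78), and both of its replicate 1 libraries, at 94.3 and 92.9 CPM, stood above the others. IFT140, an IFT-A subunit, had -0.22 (adjusted p = 0.67, and 0.018 with the block), and its replicate 1 libraries were the lowest of both groups. IFT52, an IFT-B subunit, had 2, 2 and 0 counts in PDGF and 0 in every PDGFNO library, far under the other IFT genes.

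BBS genes encode subunits of the BBSome, and none of the 6 was called by edgeR, where 0 also had an unadjusted p under 0.05 and DESeq2 and limma-voom called 0. With the block 0 were lower and 2 (BBS5 and BBS7) higher. Their summed level was 196 to 208 CPM in PDGF and 192 to 193 CPM in PDGFNO. Without BBS1 and BBS5, whose counts another gene shares, the sums overlapped, at 79.2 to 102 CPM in PDGF and 75.1 to 98.9 CPM in PDGFNO. BBS7 was at 43.1, 32.0 and 31.7 CPM in PDGF and at 29.8, 29.6 and 26.4 CPM in PDGFNO, so its groups did not overlap (log2 fold change 0.32, adjusted p = 0.25, and 0.013 with the block). BBS1 had -0.12 (adjusted p = 0.74) and BBS5 had 0.57 (adjusted p = 0.20, 0.017 without PDGFNO replicate 1, and 8.3e-05 with the block). BBS1 had the same counts as DPP3 in every library and BBS5 the same as KLHL41, so these values cannot be assigned to the BBS genes.

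**Figure D4:**
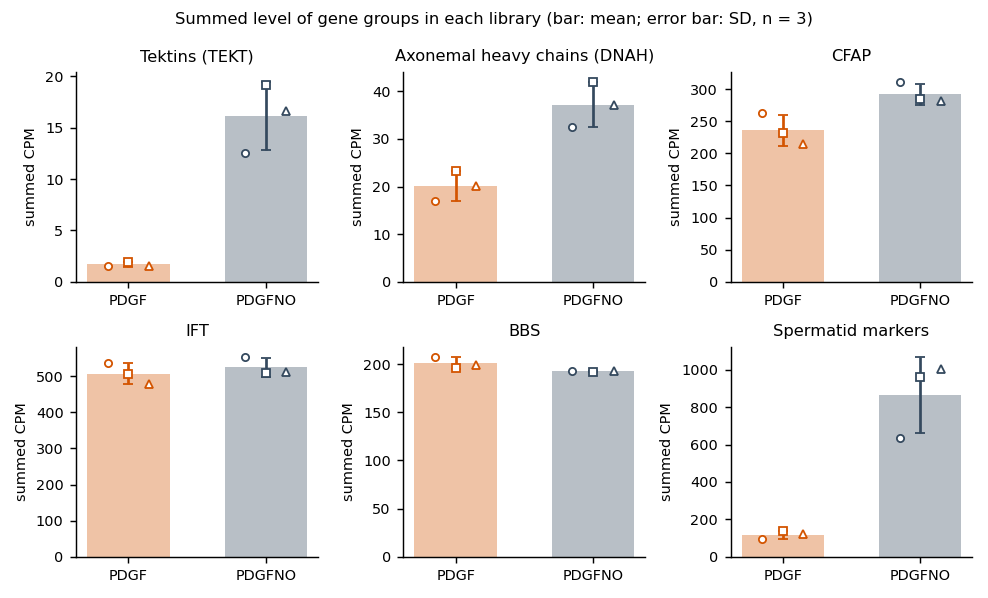
Summed CPM of 5 ciliary gene groups and of the spermatid markers in each library, with the mean as a bar and the SD (n = 3) as an error bar, on axes that start at 0. Tektins and spermatid markers separate the groups by the widest ratios, and the IFT sums overlap.

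Ciliary genes named outside these prefixes were counted in the same way. The block called 29.0% of all tested genes lower and 31.1% higher, which stands beside its counts here. Of 54 other motile cilium and flagellum genes, 38 passed the filter, and 16 were called lower and 0 higher, with a median log2 fold change of -0.86 and, with the replicate block, 23 lower and 0 higher. The furthest were ODF4 (-3.49), MORN3 (-3.45) and ODF1 (-3.40), and ODF1 and ODF4 encode outer dense fibre proteins of the sperm tail. ODF1 was at 4.05, 6.02 and 5.18 CPM in PDGF and at 39.3, 65.5 and 55.9 CPM in PDGFNO. Of 14 other IFT genes, 1 fell (TTC21A, -1.04) and 0 rose, with a median of 0.11, and with the block 1 was lower and 5 were higher. Of 7 other BBSome and Bardet-Biedl syndrome genes, 2 fell (CCDC28B, -0.81, and WDPCP, -0.80) and 0 rose, or 4 and 1 with the block.

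Of 22 transition zone genes, which gate the base of the cilium, 2 fell (RPGRIP1, -1.94, and MKS1, -0.95) and 0 rose, with a median of 0.03. With the block 5 were lower and 6 higher, beside 29.0% lower and 31.1% higher of all tested genes. Of 9 tested regulators of ciliary genes, 2 fell, SOX30 (-2.94) and TP73 (-1.66), and 0 rose, or 3 and 3 with the block. FOXJ1, the master regulator of motile cilia, did not pass the filter, with 2, 3 and 0 counts in PDGF and 4, 12 and 9 in PDGFNO.

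Markers of cells that build motile axonemes differed in the same libraries. Of 30 spermatid markers chosen, 21 were among the genes counted and 16 were tested. All 16 fell, with a median log2 fold change of -3.04. The summed level of the markers was 95.1 to 138 CPM in PDGF and 633 to 1005 CPM in PDGFNO. TSSK2 had no count in any library. The furthest were SPACA7 (-3.65), LDHC (-3.47) and IQCF5 (-3.40). Of 8 tested spermatocyte markers, 5 fell, with BOLL (-4.71), PIWIL1 (-3.20) and OVOL1 (-2.73) furthest, and the sum was 8.03 to 9.62 CPM in PDGF and 20.8 to 23.8 CPM in PDGFNO. STRA8 had no count in any library.

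Multiciliated cell markers were low in all libraries. Of 8, 3 passed and 2 fell (CCDC78, -2.14, and TP73, -1.66), and the sum was 7.09 to 14 CPM in PDGF and 15.2 to 23.7 CPM in PDGFNO. MCIDAS, which starts the multiciliated programme, had 0 counts in 5 libraries and 4 in PDGFNO replicate 2. Of 5 tested epithelial markers, 4 fell, led by KRT7 (-7.18), CDH1 (-2.84) and KRT18 (-1.61), and the sum was 36.3 to 52.4 CPM in PDGF and 173 to 241 CPM in PDGFNO. The part of any of these cell types in the lower level of motile genes was not tested.

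Markers of the remaining testicular cells were counted in the same way. Beside their counts with the block stand 29.0% lower and 31.1% higher of all tested genes. Of 7 tested spermatogonial markers, 2 fell (DDX4, -2.72, and FGFR3, -2.07) and 1 rose (UCHL1, 0.51), or 5 and 2 with the block. Their median log2 fold change was -1.57, with 5 below 0 and 2 above. Every PDGF library was under every PDGFNO library for 5 of them and over for 1. Their sums were 473 to 519 CPM in PDGF and 435 to 536 CPM in PDGFNO. Of 13 peritubular and stromal markers, 4 fell, with DES (-3.27), ACTA2 (-1.19) and COL3A1 (-1.07) furthest, or 9 lower and 2 higher with the block, with sums of 14488 to 19917 CPM in PDGF and 17678 to 20078 CPM in PDGFNO. Of 5 tested Sertoli cell markers 1 fell (AMHR2, -1.80) and 1 rose (CLU, 0.78), with sums of 1450 to 1921 CPM in PDGF and 870 to 1175 CPM in PDGFNO, which did not overlap. Of 3 Leydig cell and 2 immune cell markers 0 were called in either direction, and with the block 2 Leydig cell markers were higher. The Leydig cell markers summed to 263 to 329 CPM in PDGF and 217 to 261 CPM in PDGFNO, without overlap, and the immune cell markers to 17.3 to 19.6 CPM and 12.2 to 18.6 CPM. CYP11A1, PTPRC, CD3E and CD8A had no count in any library.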

How the data were processed

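The authors deposited raw counts per gene for 6 bulk libraries, without normalization. The submitters' processing notes name fastp, HISAT2 2.1.0, SAMtools and featureCounts 2.0.1, and list Mmul_10 and Mmul_8.0.1 without saying which of them the counts rest on, so no coordinates or sequences are printed. Of the deposited expected counts, 34 values of 13 genes were not whole (0 members), and all were rounded. Of 17795 genes, 3004 had no count. The strand setting of the counting is not given in the sources used here, so reads of the 25 members whose exons overlap another gene cannot be told from that gene's. Exon lengths and overlaps came from RefSeq annotation release 103 of Mmul_10, matched by symbol for 76 members and by gene ID for the rest.

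Genes were filtered with filterByExpr by group, scaled by TMM and tested with edgeR 4.0.16 (R 4.3.3) by the quasi-likelihood test, PDGF against PDGFNO over 11539 genes, with Benjamini-Hochberg adjustment. The threshold was an adjusted p of 0.05. The SE is the log2 fold change divided by the root of F. Fold changes within a batch used a prior count of 0.5. Ratios of untested members, corrected for total counts, have exact 95% (Clopper-Pearson) intervals. They cover counting error only.

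Same-numbered libraries share a batch by the labels. Once the mean of each group was subtracted, they correlated over all tested genes at r = 0.81 (replicate 1), 0.48 (replicate 2) and 0.50 (replicate 3). No correlation was computed between libraries of unlike number, so these values do not tell a pairing from a shared batch. The numbers were taken to pair the libraries for the block, and no label gives this pairing. Replicates 2 and 3 share batch 2. Alternatives were fits with a replicate block or a batch term, batch 2 by itself, DESeq2 1.42.0, limma-voom (limma 3.58.1), other normalizations, filters and thresholds, members with shared counts left out, each library left out, and replicates 2 and 3 summed. The last, with batch as a term, was added after seeing the data. The steps were tested on simulated counts.

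The members and the 15 gene lists were chosen with earlier results of these data known. Genes of a list whose symbol is absent from the deposited counts were left out. Of 30 spermatid, 20 spermatogonial and 15 multiciliated cell markers chosen, 21, 15 and 8 were present. The result of 1 list is not reported here. In each role the text names up to 6 called members in each direction by size of change, up to 3 uncalled by mean CPM and up to 3 untested by total count, and from each list up to 3 called in each direction. CFAP58, IFT57, IFT81 and the CFAP genes given only by a range, the marker genes with no call and FOXJ1 and MCIDAS are named outside this rule, after their values were seen. Tables and figures used Python 3.11.15.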

Additional observations from a re-analysis of the deposited data

How the results depend on the processing

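The number of motile members called lower, 17, was 28 with replicates 2 and 3 summed and batch as a term, 7 with them summed and no such term, 8 at an adjusted p under 0.01, 7 with at least 10 counts in every library, a filter that removes genes because they are low with PDGF, and 10 to 19 with 1 library left out (10 without PDGF replicate 3 or PDGFNO replicate 2, 11 without PDGF replicate 2). The filter was run anew in each fit on fewer or summed libraries, so the members tested changed too. With replicates 2 and 3 summed, CFAP100, CFAP65, DNAH9 and RSPH1, untested in the main fit, were also tested. The share of all genes called was counted for the main and blocked fits only, so the other counts stand without it. The summed fits hold 2 columns a group. With batch as a term such a fit leaves little spread to test against, so its counts carry little weight. The number of motile members called higher, 0, was 2 with the replicate block, with batch as a term, and with the summed libraries and batch as a term, 1 in batch 2 alone and 1 at an adjusted p under 0.1, and 0 in every fit with 1 library left out. Of the primary cilium members, 3 called lower became 6 with the replicate block, 6 with the summed libraries and batch as a term, 5 with batch as a term, 5 in batch 2 alone, 0 with the summed libraries alone, 0 at an adjusted p under 0.01 and 0 to 3 with 1 library left out (0 without PDGF replicate 2 or PDGFNO replicate 2 or 3). The 0 called higher became 4 with the block, 4 with batch as a term, 5 with the summed libraries and batch as a term, 3 in batch 2 alone and 0 to 1 with 1 library left out. The motile median of -0.93 was -1.16 with a filter of at least 1 count, -0.46 with at least 10 counts in every library, and -1.28 to -0.95 with 1 library left out. The primary cilium median ranged from -0.046 to 0.088 with 1 library left out, so its sign depended on the library. For the 39 tested members named by rule, of which 19 were called, 700 values kept their side of the threshold, 51 lost a call, 47 gained one and 0 called values changed sign. Of the 700, 17 changed sign, for 5 members called in neither fit (BBS1, DNAAF2, DNAAF9, IFT80 and IFT140). DESeq2, limma-voom, RLE and upper quartile scaling kept every count of the classes within 1.5 times. The causes of these shifts were not tested. Depth limits the 26 untested members, which had 3 to 65 counts in all.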
